A study of Mus musculus with 13 samples.

Results

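Metallothioneins and zinc transporters were examined in whole-liver RNA of alcohol-fed mice. The 10 genes were chosen by symbol from the 53392 genes of the count table: the metallothioneins Mt1 and Mt2, the zinc importers Slc39a1, Slc39a4, Slc39a5, Slc39a8 and Slc39a14, the exporters Slc30a1 and Slc30a10, and the transcription factor Mtf1. All 10 were found, and all 10 passed the filter on low counts that left 14317 genes for testing. Slc39a5 was selected on its lower counts with Dox in ASAH+ mice, so its values are described without a test in every comparison. The RNaseq samples came from 13 young adult female mice, each a separate animal, that received 28% of calories from Etoh in a liquid diet for 4 weeks. Every mouse carried Albumin-Cre and, at Rosa26, the reverse tetracycline transactivator behind a stop cassette. Only ASAH+ mice carried the tetracycline-responsive ASAH1 transgene, which Dox turns on in hepatocytes. There were 5 ASAH+ mice fed Etoh with Dox (induced mice), 4 ASAH+ mice fed Etoh without it (uninduced mice) and 4 littermates without the transgene fed Etoh with Dox (ASAH- mice). Titles and descriptions of the ASAH+ samples contradict each other on Dox, and the descriptions were used.

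The level of Asah1, the induced ceramidase, followed this grouping. In CPM, which are counts scaled to library size, it was 12755 ± 2796 (SD, n = 5) in induced mice, 49.4 ± 6.78 (SD, n = 4) in ASAH- mice and 46.5 ± 1.70 (SD, n = 4) in uninduced mice. Total counts ran from 17819486 to 35358711 per mouse, and the labels name no sequencing batch. The 10 listed hepatocyte markers summed to between 95475 and 148179 CPM in each mouse, led by Alb at a mean of 90337 CPM.

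Zinc enters the cytosol through the ZIP importers of the Slc39 family and leaves it through the ZnT exporters of the Slc30 family. In the cell it is bound by metallothioneins, small cysteine-rich proteins, and sensed by the zinc finger factor MTF1, which binds metal response elements in the promoters of Mt1, Mt2 and Slc30a1. In liver, metallothioneins and the importer Slc39a14 are also known as acute-phase genes, and chronic alcohol is known to disturb hepatic zinc.

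Mt1 (ENSMUSG00000031765.8) spans 94179082 to 94180327 of chromosome 8 (GRCm38, plus strand). Mt2 (ENSMUSG00000031762.7) lies on the same strand from 94172664 to 94173568, with 5513 bases between the genes. RefSeq promoter windows on GRCm38.p6, from 250 bases before to 50 after a start, were matched by symbol for 8 of the 10 genes, and Slc39a4 and Slc39a14 had no entry. The windows were searched on both strands for the core of the metal response element, TGCACNC or TGCGCNC. Those of Mt1 (chr8:94178839-94179138, plus strand), Mt2 (chr8:94172368-94172667, plus strand) and Slc30a1 (chr1:191906531-191906830, plus strand) are printed because these genes are textbook targets of MTF1, with each match in capitals.
Mt1: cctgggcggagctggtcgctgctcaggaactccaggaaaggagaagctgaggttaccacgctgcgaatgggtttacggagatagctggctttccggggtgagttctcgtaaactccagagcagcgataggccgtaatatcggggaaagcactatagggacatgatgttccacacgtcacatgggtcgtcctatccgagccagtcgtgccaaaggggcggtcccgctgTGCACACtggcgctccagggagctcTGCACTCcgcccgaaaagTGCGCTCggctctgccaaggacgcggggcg
Mt2: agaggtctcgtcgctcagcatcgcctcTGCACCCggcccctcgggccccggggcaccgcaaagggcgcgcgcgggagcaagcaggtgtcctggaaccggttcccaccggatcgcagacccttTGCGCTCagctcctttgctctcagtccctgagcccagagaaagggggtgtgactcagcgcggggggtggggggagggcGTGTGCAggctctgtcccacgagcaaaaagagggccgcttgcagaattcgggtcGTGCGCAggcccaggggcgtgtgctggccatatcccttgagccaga
Slc30a1: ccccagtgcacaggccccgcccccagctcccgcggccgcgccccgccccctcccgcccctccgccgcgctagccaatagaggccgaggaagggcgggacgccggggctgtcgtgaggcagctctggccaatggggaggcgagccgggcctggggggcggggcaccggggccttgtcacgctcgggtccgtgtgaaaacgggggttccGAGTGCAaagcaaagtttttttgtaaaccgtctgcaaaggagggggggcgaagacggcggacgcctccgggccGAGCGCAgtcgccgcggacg
The Mt1 window held 3 matches, the Mt2 window 4 and the Slc30a1 window 2, while the windows of Slc39a1 and Mtf1 held 0. Those of Mt1 began at -23, 2 and 20 bases from the start used, and sequence outside the windows was not searched. Of all 32851 windows of this length, 7.11% held 2 or more matches, 1.97% held 3 or more and 0.517% held 4 or more. A match is a run of letters, and no binding was measured.

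Mt1 was at 203, 346, 316 and 131 CPM in the 4 ASAH- mice. It was at 212, 180, 95.7, 66.8 and 89.3 CPM in the 5 induced mice, and at 97.8, 92.4, 236 and 219 CPM in the 4 uninduced mice. The highest mouse had 5.17 times the level of the lowest, and high and low mice occurred within each group. Mt2 was at 190, 221, 236 and 58.1 CPM in ASAH- mice, at 134, 95.9, 62.0, 41.0 and 54.0 CPM in induced mice, and at 68.5, 49.1, 176 and 187 CPM in uninduced mice. The mice of the 3 groups overlapped for both genes. The lowest ASAH- mouse, replicate 4, was within the range of the induced mice for Mt1 and for Mt2.

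**Figure D1:**
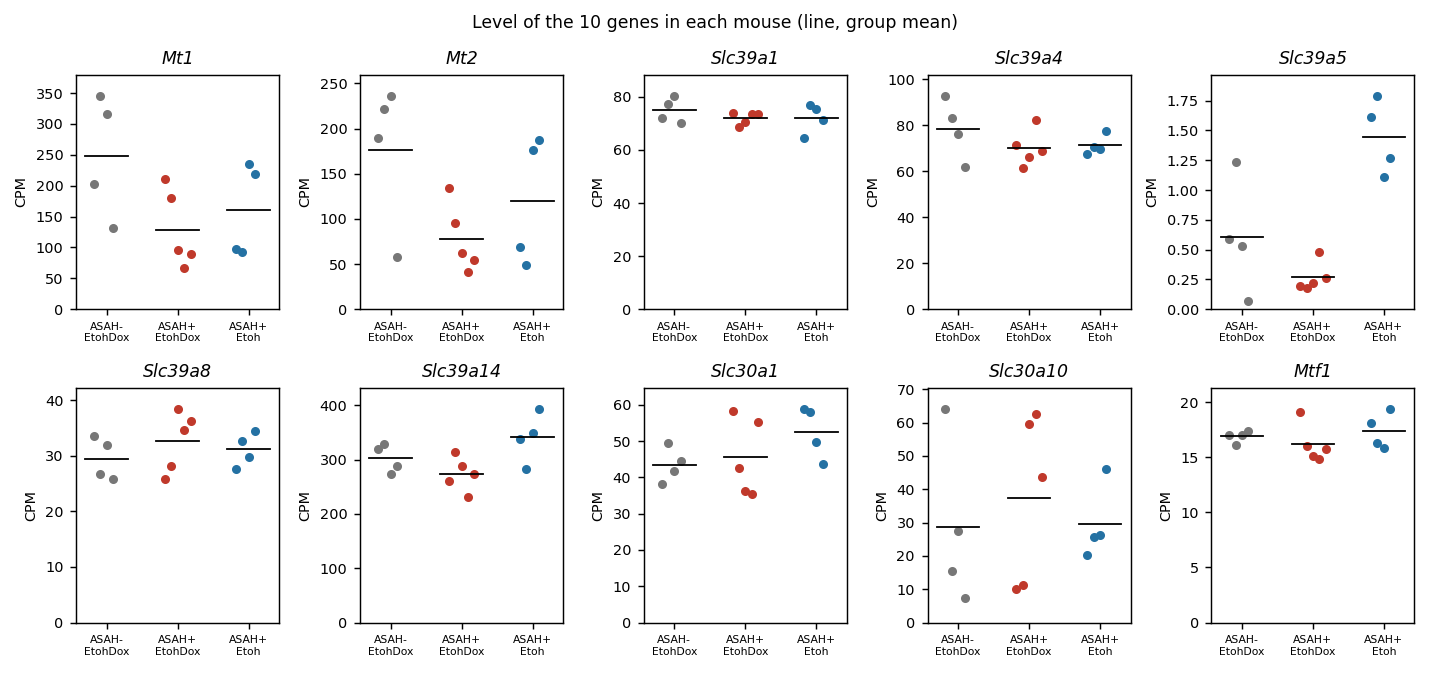
Level of each gene in CPM (y axis, from 0) in each mouse (points) by group (x axis), with the group mean as a line. Mt1 and Mt2 spread widely in each group, Slc39a5 was higher in each of the 4 uninduced mice than in any induced mouse, and Slc39a1 stayed between 64.7 and 80.4 CPM.

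Mt1 and Mt2 varied together over the 13 mice. On log2 CPM, Pearson's r was 0.96 (permutation p = 1e-05, the smallest that the resamples can give, adjusted p = 7e-05 over the 7 relations of Mt1). Spearman's rho was 0.93 (permutation p = 2e-05, adjusted p = 0.00014). Without the 2 mice farthest from the median of Mt2, r was 0.94, and with the group means taken out it was 0.95. The 2 genes therefore do not measure the groups independently. Mt2 was also the gene most like Mt1 among 11111 tested genes with a mean log2 CPM above 1. The next were Pold4 and Pofut2 (both r = 0.88), Cd59b (r = 0.88) and Tnfrsf1a (r = 0.87), given as a description over 13 mice.

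**Figure D2:**
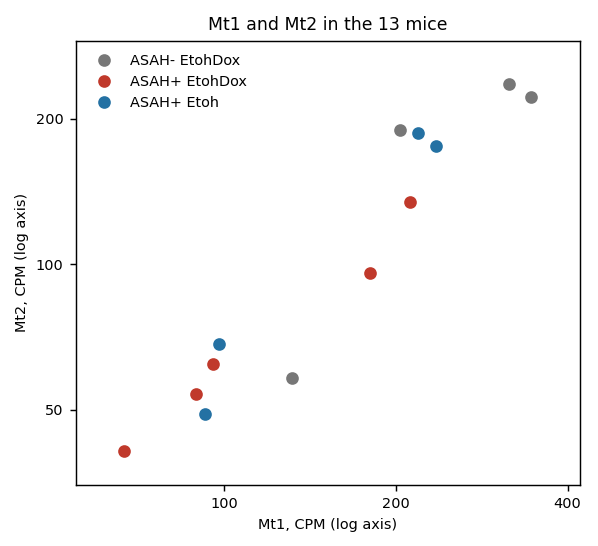
Mt2 (y axis) against Mt1 (x axis), both in CPM on log axes, with 1 point per mouse colored by group. The points lie along a line that starts at 66.8 CPM of Mt1 and 41.0 CPM of Mt2. The 3 groups overlap, and the highest level of each gene is in an ASAH- mouse.

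None of the other 6 relations of Mt1 passed an adjusted p of 0.1, which was the threshold throughout. Mtf1, whose protein is the zinc sensor, had r = 0.38 with Mt1 (permutation p = 0.196, adjusted p = 0.343) and rho = 0.45 (permutation p = 0.129, adjusted p = 0.226). Slc30a1, the exporter that shares the MTF1 control, had r = 0.021 (permutation p = 0.943, adjusted p = 0.943) and rho = 0.055 (permutation p = 0.863, adjusted p = 0.878). Slc39a14 had r = 0.47 (permutation p = 0.108, adjusted p = 0.251) and rho = 0.45 (permutation p = 0.125, adjusted p = 0.226). Without the 2 mice farthest from the median, r was 0.28 for Mtf1, 0.075 for Slc30a1 and 0.21 for Slc39a14.

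Acute-phase and glucocorticoid genes were set against Mt1 because metallothioneins respond to both signals. The mean log2 CPM of 19 genes of the IL-6 acute-phase response had r = 0.51 with Mt1 (permutation p = 0.0752, adjusted p = 0.251) and rho = 0.54 (permutation p = 0.0621, adjusted p = 0.217). Without the 2 mice farthest from the median r was 0.39. With group means taken out, r was 0.77 (permutation p within groups = 0.00705, adjusted p = 0.0247), so this relation passed the threshold within the groups and not over the pooled mice. It holds for the mean of the list and not for each gene. In the 5 induced mice, where Mt1 was at 212, 180, 95.7, 66.8 and 89.3 CPM, Saa1 was at 178, 76.5, 25.7, 19.2 and 18.3 CPM. Fga, the most abundant of the list, was at 3529, 4363, 6217, 5056 and 5327 CPM in the same mice. Single genes of the list were not tested against Mt1. For the 10 glucocorticoid-responsive genes r was 0.065 (permutation p = 0.830, adjusted p = 0.943) and rho 0.049 (permutation p = 0.878, adjusted p = 0.878), and r was 0.30 without the 2 farthest mice.

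To ask what the transgene changed on the same diet, induced mice were compared with ASAH- mice. The log2 fold change was -0.95 for Mt1 (standard error 0.42) and -1.19 for Mt2 (standard error 0.51). The adjusted p was 0.9997 for both (edgeR, Benjamini-Hochberg over all genes), and the unadjusted p 0.0448 and 0.0375. An exact two-sided permutation test of the difference in mean log2 CPM gave p = 0.0714 and 0.0794. An induced mouse was above an ASAH- mouse in 3 of 20 pairs of mice for each gene. None of the 9 tested genes was called, where 0.014% of all genes tested were. At an unadjusted p under 0.05 there were 2 of the 9, Mt1 and Mt2, where the share of all genes was 2.86%. The median log2 fold change of the 9 was -0.062, and that of all genes -0.0023. No tested gene of the 9 separated the mice of these groups, while 0.887% of all genes did. DESeq2 on all 13 mice called 0 of the 9 as well, and 12 genes in all.

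To ask what Dox with its induction changed in ASAH+ mice, induced mice were compared with uninduced mice. Slc39a14 (ENSMUSG00000022094.15, chromosome 14, 70303469 to 70351425, minus strand) takes zinc, iron and manganese into hepatocytes and rises in the acute phase. It was at 260, 315, 287, 230 and 274 CPM in induced mice, at 339, 282, 350 and 393 CPM in uninduced mice, and at 319, 330, 273 and 288 CPM in ASAH- mice. An induced mouse was above an uninduced mouse in 2 of 20 pairs, and the ranges overlapped. The log2 fold change was -0.32 (standard error 0.11), with an edgeR adjusted p of 0.550 and an unadjusted p of 0.0111. DESeq2 on all 13 mice called this gene (adjusted p = 0.0955, log2 fold change -0.33), as 1 of 98 genes. The log2 fold change of Mt1 was -0.32 (standard error 0.42), that of Mt2 -0.63 (standard error 0.51), with adjusted p of 0.899 and 0.816 from edgeR. Leaving out 1 mouse took Mt1 to -0.58 (replicate 1 of induced mice), -0.16 (replicate 4 of induced mice), or -0.50, -0.51, -0.090 and -0.15 (replicates 1 to 4 of uninduced mice). It took Mt2 to -0.40 and -0.34 (replicates 3 and 4 of uninduced mice). Of the 9 tested genes edgeR called 0, where 0.014% of all genes were called. Slc39a14 was the 1 gene of the 9 with an unadjusted p under 0.05, where 7.29% of all genes had one. None of the 9 separated the groups, where 2.58% of all genes did, and their median log2 fold change of -0.10 stood beside 0.013 for all genes.

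ASAH- mice and uninduced mice differ in both genotype and Dox, and share these mice with the comparisons above. The log2 fold change was 0.63 for Mt1 (standard error 0.45), 0.55 for Mt2 (standard error 0.54), -0.27 for Slc30a1 (standard error 0.16) and -0.17 for Slc39a14 (standard error 0.12). Mt2 was at 0.85 without replicate 4 of ASAH- mice and at 0.36, 0.29 and 0.83 without replicate 1, 2 or 4 of uninduced mice, and Slc39a14 at -0.11 without the last. EdgeR called 0 of the 9 genes, where 0.014% of all genes were called, and DESeq2 called 0 of the 9 and 149 genes in all. That share is 2 genes. Leaving out 1 mouse, edgeR called 2 without replicate 4 of ASAH- mice, 1 without replicate 1 of induced or replicate 3 of uninduced mice, and 0 in the other 10 fits. None of the 9 had an unadjusted p under 0.05, where 9.19% of all genes did, and none separated the groups, where 5.5% of all genes did. The median log2 fold change of the 9 was -0.040, and that of all genes 0.016.

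**Figure D3:**
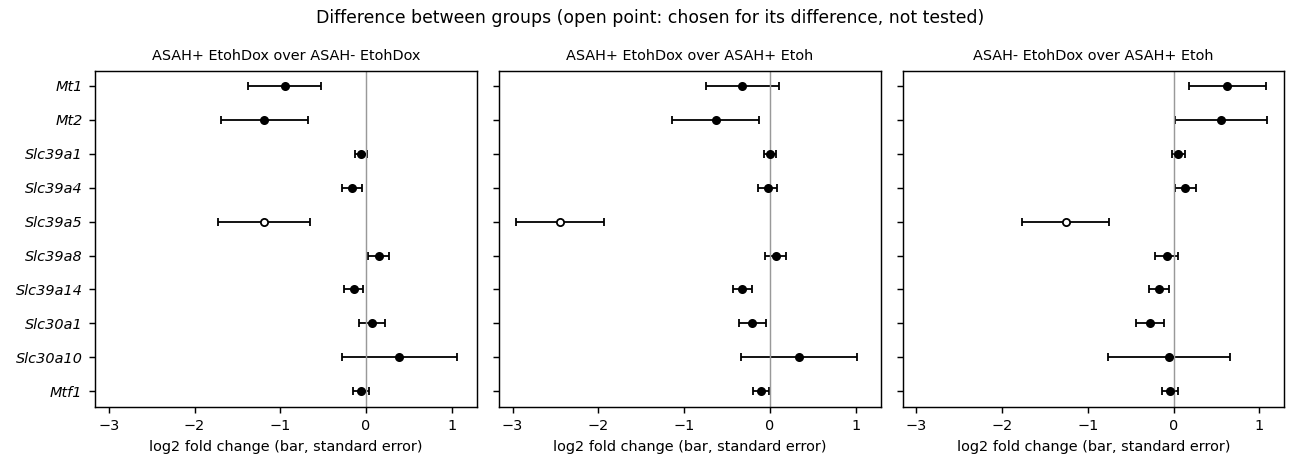
Log2 fold change (x axis) with its standard error (bar) for each gene (y axis) in the 3 comparisons, which share groups. Mt1 and Mt2 lie lowest among the tested genes in induced over ASAH- mice, at -0.95 and -1.19. The open point is Slc39a5, which was chosen for its difference and has no test.

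Slc39a5 (ENSMUSG00000039878.13, chromosome 10, 128395931 to 128401229, minus strand) encodes a zinc importer known from the basolateral side of enterocytes and from pancreatic acinar cells. It had 7, 5, 6, 12 and 6 counts in induced mice, and 35, 44, 24 and 22 counts in uninduced mice. Scaled to library size these were 0.194, 0.180, 0.217, 0.481 and 0.260 CPM against 1.61, 1.79, 1.11 and 1.27 CPM. These are the values that selected the gene, and every uninduced mouse was above every induced mouse. The ASAH- mice had 13, 32, 13 and 2 counts, or 0.594, 1.23, 0.531 and 0.0715 CPM. They spanned the range from the lowest mouse of all to the level of the uninduced mice, and 1 of them, with 2 counts, was under a floor of 3 counts. As a description, the log2 fold change was -2.45 in induced over uninduced mice, -1.19 in induced over ASAH- mice, and -1.26 in ASAH- mice over uninduced mice. Without replicate 2 of ASAH- mice the last 2 values were -0.56 and -1.89. Over all 13 mice there were 221 counts of this gene, so each value carries counting error, which is largest in proportion at the lowest counts.

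Markers of pancreas and intestine were read because Slc39a5 is known there. All 6 pancreatic islet markers had 0 counts in every mouse. Of 12 acinar markers, Pnlip, Clps and Ptf1a had 0 counts in every mouse and Prss2, Cpa1, Cpb1, Ctrb1, Amy2a5, Cel and Cela3b had at most 4 counts in any mouse, and Cela2a at most 15. The summed level of the 12 was 12.5, 8.48, 7.30 and 5.72 CPM in ASAH- mice, 8.74, 7.17, 8.75, 9.95 and 7.37 CPM in induced mice and 6.96, 6.47, 7.89 and 6.59 CPM in uninduced mice. Cela1, at a mean of 7.56 CPM, made up most of it. Of 7 enterocyte markers, Alpi, Lct, Sis and Cdx2 had 0 counts in every mouse, and Fabp2, which liver also expresses, led the list at a mean of 80.0 CPM. Vil1 had at most 8 counts in any mouse and Muc2 at most 2. The enterocyte sum ran from 59.3 to 116.6 CPM and was lower on average in uninduced mice (67.2 CPM) than in induced mice (90.7 CPM). Most of this sum was Fabp2, so its group means do not separate liver from intestine.

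The genes most like Slc39a5 among 11112 tested genes were Cib2 (r = 0.87 over 13 mice), Slc19a2 (r = 0.86), Itih4 (r = 0.82), Ifitm2 (r = 0.80) and Akr1b7 (r = 0.80). With group means taken out, r was 0.77 for Cib2, 0.75 for Slc19a2, 0.56 for Itih4, 0.53 for Ifitm2 and 0.59 for Akr1b7. The choice of Slc39a5 by its group pattern favors genes with that pattern, so these are a description. The RefSeq windows of Slc39a5 were 2 in number, and 1 of them held 1 match to the metal response element core, where 25.7% of all windows held 1 or more.

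The exporter Slc30a10 (ENSMUSG00000026614.6, chromosome 1, 185454848 to 185468762, plus strand) is known to carry manganese and zinc out of hepatocytes. It was at 64.1, 15.5, 27.5 and 7.22 CPM in ASAH- mice, at 9.93, 11.2, 59.5, 62.6 and 43.6 CPM in induced mice, and at 20.1, 25.6, 26.4 and 46.0 CPM in uninduced mice. The highest mouse had 8.87 times the level of the lowest, and both extremes were ASAH- mice. The group means of 28.6, 37.4 and 29.6 CPM differed by less than the SD within the ASAH- and induced groups, which was 25.1 and 25.5 CPM. Its log2 fold change was 0.39 in induced over ASAH- mice, and 0.065 to 1.17 with 1 mouse left out. In induced over uninduced mice it was 0.34, and 0.072 to 0.63 with 1 mouse left out.

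Dbp and Arntl are output and core genes of the circadian clock that peak at opposite times of day, so the log2 ratio of Dbp to Arntl differs with clock phase. It was -0.96, 6.49, 1.81 and 6.11 in ASAH- mice, 6.64, 6.78, -1.64, 0.15 and 2.70 in induced mice, and 4.45, 6.06, 5.05 and 1.60 in uninduced mice. The mice with the lowest ratios had the highest Slc30a10. In a fit of all genes with 3 group means and this ratio, chosen after the values were seen, the slope of Slc30a10 was -0.32 on the log2 scale per unit of the ratio (standard error 0.041, edgeR adjusted p = 0.00132). It was called in each of the 13 fits that left out a mouse, with slopes from -0.35 to -0.30. Slc39a8 (ENSMUSG00000053897.15, chromosome 3, 135825279 to 135888572, plus strand), an importer known to reclaim manganese from bile, also fell as the ratio rose (slope -0.054, standard error 0.011, adjusted p = 0.0139 from the same test, slopes from -0.058 to -0.046 without each mouse). Its level was 33.6, 26.7, 31.9 and 25.8 CPM in ASAH- mice, 25.8, 28.1, 38.4, 34.6 and 36.3 CPM in induced mice and 27.7, 32.6, 29.8 and 34.4 CPM in uninduced mice.

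Slc30a1 (ENSMUSG00000037434.7, chromosome 1, 191906767 to 191913247, plus strand), the plasma membrane zinc exporter, had a slope in the other direction (0.057, standard error 0.017, edgeR adjusted p = 0.0694). It was at 38.3, 49.6, 41.7 and 44.5 CPM in ASAH- mice, at 58.4, 42.7, 36.2, 35.3 and 55.3 CPM in induced mice and at 58.8, 58.0, 49.7 and 43.6 CPM in uninduced mice. This call was lost in 7 of 13 fits that left out a mouse. These were without replicate 1 or 2 of ASAH- mice, replicate 1, 3 or 4 of induced mice, and replicate 2 or 4 of uninduced mice, with adjusted p from 0.101 to 0.176. Over all 13 fits its slope ran from 0.048 to 0.071. In all, 3 of the 9 genes other than Slc39a5 were called on this slope, and 9.58% of all genes tested were. That was 1371 of 14317 genes, 693 with a rising and 678 with a falling slope, and 632 without replicate 1 of ASAH- mice and 900 without replicate 4 of induced mice. Dbp and Arntl make up the ratio, so their calls on it carry no information, and of the 16 other clock genes 13 were called. Time of death is not among the labels, and its part in these values was not tested.

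**Figure D4:**
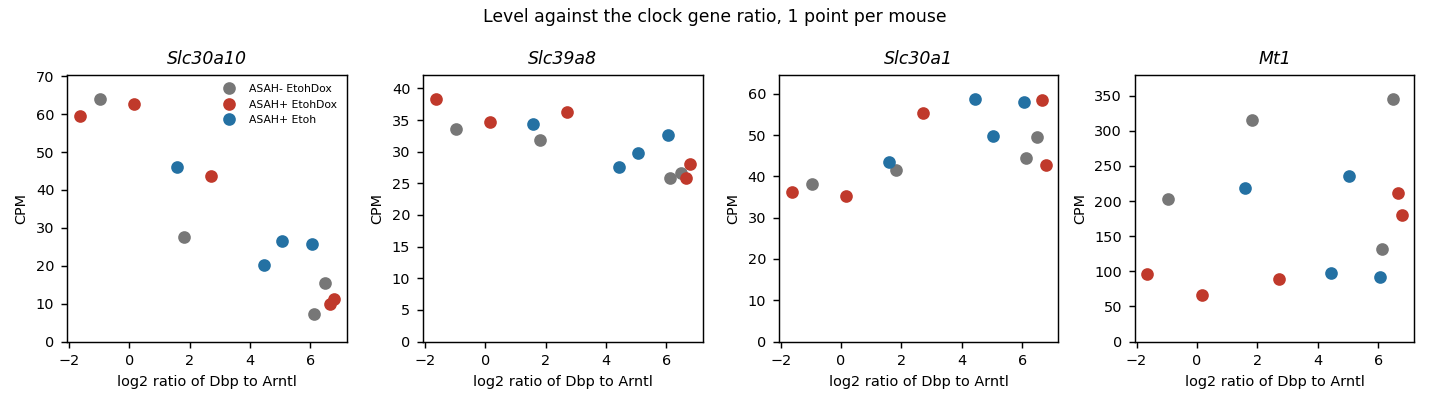
Level in CPM (y axis, from 0) against the log2 ratio of Dbp to Arntl (x axis) for Slc30a10, Slc39a8, Slc30a1 and Mt1, with 1 point per mouse colored by group. Slc30a10 was at 59.5 CPM or more in the 3 mice with the lowest ratios and at 15.5 CPM or less in the 4 mice with the highest, and Mt1 shows no such order.

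Mt1 had r = 0.26 with the same ratio (permutation p = 0.388, adjusted p = 0.543) and rho = 0.27 (permutation p = 0.362, adjusted p = 0.507), and r was 0.27 without the 2 farthest mice. For Slc39a5, whose values chose it, r with the ratio was 0.023 and rho -0.19, and r was -0.15 without the 2 farthest mice and -0.22 with group means taken out, given as a description. No p is given, because these values chose the gene. The windows of Slc30a10 (chr1:185454598-185454897, plus strand) and of the downstream start of Slc39a8 (chr3:135825407-135825706, plus strand) are printed because both genes moved with the ratio. Capitals mark the metal response element core in the first and the E-box CACGTG, the element of the core clock factors, in the second.
Slc30a10: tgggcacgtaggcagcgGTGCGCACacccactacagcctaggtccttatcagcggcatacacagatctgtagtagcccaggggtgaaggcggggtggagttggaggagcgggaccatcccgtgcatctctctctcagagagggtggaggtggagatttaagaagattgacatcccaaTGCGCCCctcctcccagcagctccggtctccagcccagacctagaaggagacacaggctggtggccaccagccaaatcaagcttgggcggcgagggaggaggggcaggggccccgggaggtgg
Slc39a8: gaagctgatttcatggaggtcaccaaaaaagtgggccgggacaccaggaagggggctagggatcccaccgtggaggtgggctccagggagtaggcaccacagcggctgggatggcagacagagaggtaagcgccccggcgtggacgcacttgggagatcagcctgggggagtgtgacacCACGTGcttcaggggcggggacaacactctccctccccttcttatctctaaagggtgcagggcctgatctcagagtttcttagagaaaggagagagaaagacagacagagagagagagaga
Slc30a10 had 3 matches to the metal response element core, of which 2 overlap on opposite strands, and no E-box. The downstream Slc39a8 window had 1 E-box, which 7.15% of all windows had at least 1 of, and 1 match to the metal response element core, not in capitals. The other window of Slc39a8 held no match to either motif. The window of Slc30a1, which was also called on the ratio, held no E-box.

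The remaining genes varied little. Slc39a1 (chromosome 3, 90248172 to 90253612, plus strand), a zinc importer of the plasma membrane in many tissues, ran from 64.7 to 80.4 CPM over the 13 mice with a coefficient of variation of 5.60%. Slc39a4 (chromosome 15, 76612383 to 76617384, minus strand), the main zinc importer of the intestine, ran from 61.5 to 92.8 CPM (12.4%). Mtf1 (chromosome 4, 124802104 to 124849800, plus strand) ran from 14.9 to 19.4 CPM (8.40%). The coefficient of variation was 14.3% for Slc39a14, 18.1% for Slc30a1 and 13.4% for Slc39a8, against 51.1% for Mt1, 59.6% for Mt2 and 63.8% for Slc30a10. Of the log2 fold changes of Slc39a1, Slc39a4 and Mtf1 in the 3 comparisons, the largest in size was -0.16, of Slc39a4 in induced over ASAH- mice (-0.065 without replicate 1 and -0.26 without replicate 4 of ASAH- mice). For Slc39a1 27.7% of the 31-base words of its transcript also occur in transcripts of other genes, so its counts are uncertain in part.

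To order the genes by abundance, CPM was divided by the kilobases of annotated exon. The metallothioneins were highest, with Mt2 at 206 ± 123 and Mt1 at 141 ± 72.0 CPM per kb (SD, n = 13). Next came Slc39a1 at 30.9 ± 1.73, Slc39a14 at 28.7 ± 4.09 and Slc39a4 at 23.5 ± 2.92 CPM per kb. Slc30a1 was at 8.98 ± 1.62, Slc30a10 at 5.53 ± 3.53, Slc39a8 at 4.07 ± 0.546 and Mtf1 at 1.88 ± 0.158 CPM per kb. Slc39a5 was lowest of the 10, at 0.330 ± 0.267 CPM per kb. With the longest transcript in place of all exons, Slc39a14 was at 59.2 CPM per kb, above Slc39a1, and Slc39a8 at 7.41 CPM per kb, above Slc30a10.

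**Figure D5:**
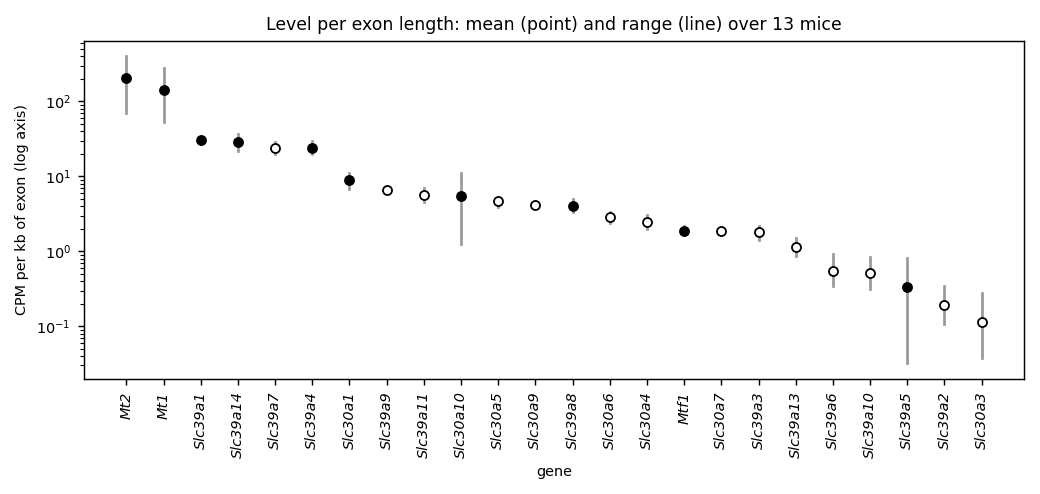
Level per length, in CPM per kb of exon on a log axis (y axis), for metallothioneins, ZIP and ZnT genes with counts in every mouse (x axis), as mean (point) and range (line) over 13 mice. Filled points are the 10 chosen genes and open points the others of these families. Mt2 and Mt1 lead, and of the genes shown only Slc39a2 and Slc30a3 lie below Slc39a5.

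The other genes of these families were listed for context. Mt3 and Mt4 had 0 counts in every mouse, which allows up to 0.00923 CPM over the 13 libraries, with 3 counts as the floor. Of 9 other ZIP genes 8 were tested and of 8 other ZnT genes 6 were, and edgeR called none in any comparison. At an unadjusted p under 0.05 there was 1 lower ZIP gene in induced over ASAH- mice, 1 lower ZnT gene in induced over uninduced mice, and 1 higher ZIP and 2 lower ZnT genes in ASAH- mice over uninduced mice, where the shares of all genes in either direction were 2.86%, 7.29% and 9.19%. In that last comparison the groups did not overlap for 2 of these 14 tested genes, and for 5.5% of all genes. Slc39a3 was higher (log2 fold change 0.39, standard error 0.11, adjusted p = 0.389 from edgeR) and Slc30a5, a transporter of the secretory pathway, was lower (-0.22, standard error 0.078, adjusted p = 0.441 from edgeR). The most abundant in CPM was Slc39a9 among the other ZIP genes, at a mean of 67.0, and Slc30a9 among the other ZnT genes, at 51.2.

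Between groups, edgeR's only calls in these lists were of 1 zinc-dependent enzyme. Sod1, the copper and zinc superoxide dismutase, was higher in induced mice than in ASAH- mice (log2 fold change 0.69, standard error 0.092, edgeR adjusted p = 0.0212) and than in uninduced mice (1.02, standard error 0.093, adjusted p = 0.000197 from edgeR). Of all genes, Sod1 and Asah1 were the 2 that edgeR called in each of these comparisons. In induced over ASAH- mice the call of Sod1 was lost without replicate 1, 3 or 4 of ASAH- mice (edgeR adjusted p = 0.155, 0.169 and 0.137). It was also lost with these groups compared alone (edgeR adjusted p = 0.226). The log2 fold changes in these fits were 0.68, 0.65, 0.67 and 0.69. DESeq2 on all 13 mice called Sod1 in this comparison (0.69, adjusted p = 1.96e-09). In induced over uninduced mice the call of Sod1 was kept in every fit, and 8 genes were called without replicate 2 of uninduced mice. Sod1 was 1 of 17 tested enzymes, of which edgeR called no other between groups, and the medians of the 17 were -0.029, 0.016 and 0.017 in the 3 comparisons. Sod1 (0.33, standard error 0.096) and Alad, a zinc enzyme of heme synthesis (0.34, standard error 0.099), were higher in ASAH- than in uninduced mice without overlap (adjusted p = 0.389 from edgeR for both), and DESeq2 called Sod1 there (0.32, adjusted p = 0.0917). They were the 2 of the 17 enzymes without overlap in that comparison, where 5.5% of all genes had none. Bhmt was the most abundant of the enzymes at a mean of 3401 CPM. None of 12 copper genes, led by Cp at 1338 CPM, was called between groups by edgeR or separated any groups. Of 15 iron and manganese genes, led by Trf at 20019 CPM, edgeR called none between groups. Atp2c1, a calcium and manganese pump, was lower in ASAH- than in uninduced mice without overlap (-0.19, standard error 0.079, adjusted p = 0.495 from edgeR). It was the 1 of these 15 without overlap in that comparison, against 5.5% of all genes.

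EdgeR called no acute-phase gene between groups. At an unadjusted p under 0.05 there were 0 of 19 in induced over ASAH- mice, 4 lower in induced over uninduced mice and 5 lower in ASAH- over uninduced mice, where the shares of all genes in either direction were 2.86%, 7.29% and 9.19%. In each of the last 2 comparisons 15 of the 19 had negative values. Those without overlap were 0, 1 and 3 of the 19 in the 3 comparisons, against 0.887%, 2.58% and 5.5% of all genes. Among the 19, led by Fga at a mean of 4967 CPM, Itih4 had lower values in both groups on Dox than in uninduced mice, without overlap. Its log2 fold change was -0.40 in induced mice (standard error 0.083, adjusted p = 0.346 from edgeR) and -0.42 in ASAH- mice (standard error 0.088, adjusted p = 0.389 from edgeR). Fgl1 (-0.55, standard error 0.16, adjusted p = 0.389 from edgeR) and Saa4 (-0.34, standard error 0.12, adjusted p = 0.413 from edgeR) likewise were lower in ASAH- mice than in uninduced mice. The median log2 fold change of the list was 0.033, -0.20 and -0.22 in the 3 comparisons, and that of all genes -0.0023, 0.013 and 0.016. The 10 glucocorticoid-responsive genes, led by Pck1 at 3635 CPM, and the 18 clock genes, led by Tef at 163 CPM, had no call between groups from edgeR.

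On the clock ratio, where 9.58% of all genes were called, edgeR called 1 of 8 other ZIP genes (Slc39a10, slope -0.094, adjusted p = 0.0473) and 0 of 6 other ZnT genes. It called 3 of 17 zinc enzymes (Sord, Gda and Glo1, adjusted p = 0.00193, 0.00711 and 0.0666) and 1 of 12 copper genes (Sco2, adjusted p = 0.00563). Of 15 iron and manganese genes it called 3 (Slc40a1, Ireb2 and Steap3, adjusted p = 0.0502, 0.0351 and 0.0911). It called 1 of 19 acute-phase genes (Il1rn, adjusted p = 0.0289) and 2 of 10 glucocorticoid-responsive genes (Zbtb16 and Sgk1, adjusted p = 0.0769 and 0.0922). Of the cell markers it called Sox9 among 5 tested cholangiocyte genes (adjusted p = 0.0979) and Cidec, the 1 tested adipocyte gene (adjusted p = 0.0502). These genes were named after their values were seen.

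Other cells of the liver were read from their markers. In bulk RNA, fewer cells of a type and less RNA per cell cannot be told apart. Of 8 Kupffer cell markers, none at 0, edgeR called 0 between groups, and 6 had an unadjusted p under 0.05 with higher values in ASAH- than in uninduced mice, where 9.19% of all genes had such a p in either direction and 5.5% did not overlap. Their summed level was 393, 386, 800 and 494 CPM in ASAH- mice, 534, 553, 287, 464 and 287 CPM in induced mice and 374, 301, 330 and 350 CPM in uninduced mice, with Cd5l most abundant at 138 CPM. Clec4f (log2 fold change 0.50, standard error 0.20) and Csf1r (0.56, standard error 0.24) were higher in ASAH- mice than in uninduced mice without overlap (adjusted p = 0.487 and 0.509 from edgeR). Of 6 endothelial markers, none at 0, edgeR called 0 between groups, and 4 had an unadjusted p under 0.05 with lower values in induced than in ASAH- mice, and 5 in induced than in uninduced mice, where the shares of all genes in either direction were 2.86% and 7.29%. They summed to 144, 125, 231 and 158 CPM in ASAH- mice, 124, 131, 108, 150 and 133 CPM in induced mice and 191, 139, 172 and 176 CPM in uninduced mice, led by Clec4g at 39.4 CPM. Induced mice had lower Pecam1 than ASAH- mice (-0.48, standard error 0.15, adjusted p = 0.9997 from edgeR) and lower Clec4g than uninduced mice (-0.51, standard error 0.16, adjusted p = 0.512 from edgeR), with no overlap. Each was the 1 of the 6 without overlap in its comparison, where 0.887% and 2.58% of all genes had none. In induced against ASAH- mice, where Mt1 and Mt2 had their lowest log2 fold changes, all 8 Kupffer, 6 endothelial, 7 stellate and 5 tested cholangiocyte markers and 9 of 10 hepatocyte markers had negative ones, as had 7254 of all 14317 genes. In induced over uninduced mice, where Mt1 and Mt2 had negative values too, all 8 Kupffer and 5 of 7 stellate markers had positive ones. Negative there were 5 of 6 endothelial, 4 of 5 tested cholangiocyte and 7 of 10 hepatocyte markers, and 6728 of all 14317 genes. In ASAH- over uninduced mice, where Mt1 and Mt2 had positive values, all 8 Kupffer, 7 stellate and 5 tested cholangiocyte markers had positive ones. So had 2 of 6 endothelial and 7 of 10 hepatocyte markers, and 7619 of all 14317 genes. The part of these cell types in the values of Mt1 and Mt2 was not tested.

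Among the remaining markers edgeR called none between groups. Serpina1a, a hepatocyte gene, was lower in induced mice than in ASAH- mice (-0.26, standard error 0.071) and than in uninduced mice (-0.20, standard error 0.071), and Apoa1 (0.54, standard error 0.13) and Apoa2 (0.18, standard error 0.087) were higher in ASAH- mice than in uninduced mice. Reln, a stellate cell gene, was lower in induced than in ASAH- mice (-0.37, standard error 0.087) and higher in ASAH- mice than in uninduced mice (0.27, standard error 0.093), and the 7 stellate markers, led by Dcn at 141 CPM, summed to between 186 and 292 CPM. Serpina1a, Apoa1, Apoa2 and Reln separated the groups compared in each case and had adjusted p from edgeR of 0.389 or above. In induced over ASAH-, induced over uninduced and ASAH- over uninduced mice, 1, 1 and 2 of 10 hepatocyte markers separated the groups. Of 7 stellate markers 1, 0 and 1 did, and of all genes 0.887%, 2.58% and 5.5%. The 7 lymphocyte markers, led by Cd4 at 0.619 CPM, summed to between 1.89 and 5.19 CPM. The 6 cholangiocyte markers, led by Spp1 at 39.2 CPM, summed to between 31.8 and 79.5 CPM. The 5 adipocyte markers, led by Cidec at 1.94 CPM, summed to between 0.594 and 3.58 CPM, with Lep at 0 counts in every mouse.

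Some of the genes overlap others on the opposite strand. Mt2 overlaps the antisense gene Gm45774, which holds 57.6% of the 31-base words of the Mt2 transcripts in reverse, but had at most 3 counts in any mouse against at least 1023 for Mt2. Slc30a10 overlaps Gm2061 (at most 37 counts, against at least 202), Slc30a1 overlaps 1700034H15Rik (at most 13 counts, against at least 754) and Mtf1 overlaps 1110065P20Rik (112 to 251 counts, against 335 to 691). Slc39a5 overlaps Ankrd52, with which it shares 0 such words on either strand. Slc39a8 overlaps 4933401H06Rik, whose counts are not given here, and 0.451% of its words occur in reverse in transcripts of other genes. The libraries were strand-specific, and the labels do not give the strand setting of the counting.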

How the data were processed

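The labels describe 13 whole-liver RNA samples sequenced from poly(A)-selected, strand-specific libraries. Per the paper, the authors used salmon with GENCODE M19 on GRCm38.p6 and summarized by gene in tximport. What they deposited is a table of unscaled estimated counts, 100% of them whole, so that rounding changed nothing. Gene names and positions came from GENCODE M21 on GRCm38 (53355 of 53392 identifiers matched).

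Under R 4.3.3, edgeR 4.0.16 was used: genes were filtered by filterByExpr, normalized by TMM and fitted with 3 group means over all mice by the robust quasi-likelihood method, checked on simulated data. P-values were adjusted by Benjamini-Hochberg over 14317 genes, with a threshold of 0.1. A standard error is the log2 fold change over the square root of F. Log2 CPM used a prior count of 2, and two-sided permutation tests of relations used 100000 resamples, within groups for centred values. Replicates of a group differed beyond sampling noise (chi-square 18.3 to 103 times its degrees of freedom over 22 pairs). Counting error is a lower bound of technical error.

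The members and lists were chosen with earlier results of these data known. Named genes are the 10, each listed gene called in any comparison, up to 2 higher and 2 lower non-overlapping genes per list and comparison, the most abundant of each list, and the 5 genes most like Mt1 and Slc39a5. Of the genes this rule names, 2 are not reported here. Python 3.11.15 with numpy 2.4.6 gave the correlations. Alternatives were DESeq2 1.42.0, its size factors in edgeR, other count filters, the groups alone, a replicate block, a covariate (log2 Dbp over Arntl) and each mouse left out. For relations they were centred values, a prior count of 0.5 and 2 mice left out, and for levels the longest transcript. The slope on the clock ratio, the settings read for Sod1 and the adjustment over 7 relations, in place of 8 with that of Slc39a5, were added after seeing the data.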

Additional observations from a re-analysis of the deposited data

Results flagged for a closer look

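Of 30 sets of mice (10 genes in 3 groups), 1 had a mouse far from the others. In ASAH- mice, Mt2 was at 58.1 CPM in replicate 4 against 190, 221 and 236 CPM in the other mice, a gap of 0.844 of the range on the log2 scale. Chance alone flags about 1 in 20 groups. Without this mouse the log2 fold change of Mt2 in induced over ASAH- mice was -1.48, against -1.19 with it. The same mouse had the lowest Slc39a5 and Slc30a10 of all mice.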

How the results depend on the processing

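Of 540 fold changes of the 9 tested genes under the alternatives, 522 kept their direction and their side of the threshold, 17 reversed and 1 became a call, that of Slc39a14 in induced over uninduced mice with DESeq2 (-0.33, adjusted p = 0.0955), which makes 1 gene called there. Comparisons follow as A (induced over ASAH-), B (induced over uninduced) and C (ASAH- over uninduced). Genes called were 12 in A, 98 in B and 149 in C with DESeq2, 4 in B with no count filter, 1 in A and 0 in C with the groups compared alone, and 1 in C with the clock covariate. The replicate block gave 1 in A, 0 in C and 503 on the clock slope, put Slc30a1 in A at -0.038, and took its clock slope to an adjusted p of 0.112. In A it took Sod1 to an edgeR adjusted p of 0.494, with a log2 fold change of 0.63 against 0.69 in the main fit. Replicate numbers carried no sign of pairing, as 0 of 13 mice were most like the mouse of their own number. Slc39a1 in B was 0.0042 with no filter, 0.0015 with at least 10 counts in every mouse and 0.0011 with the clock covariate, which also put Slc39a8 in B at -0.019 and Slc30a10 in B at -0.41. Leaving out each mouse, genes called ran from 1 to 2 in A, 2 to 8 in B, 0 to 2 in C and 632 to 1608 on the clock slope. The fold changes ran from -1.20 to -0.75 for Mt1, -1.48 to -1.01 for Mt2 and -0.26 to -0.065 for Slc39a4 in A, in B from -0.58 to -0.090 for Mt1, -0.93 to -0.34 for Mt2 and -0.40 to -0.25 for Slc39a14, and in C from 0.43 to 0.85 for Mt1, 0.29 to 0.85 for Mt2 and -0.25 to -0.11 for Slc39a14. Those of Slc39a5 ran from -1.57 to -0.56 in A, -2.76 to -2.32 in B and -1.89 to -0.87 in C. Across 0 ran Slc30a1 in A (-0.037 to 0.15), Slc39a1 in B (-0.049 to 0.031), Slc39a4 in B (-0.088 to 0.018), Slc39a8 in B (-0.0061 to 0.13) and Slc30a10 in C (-0.84 to 0.27). The relation of Mt1 to the mean of the acute-phase genes was 0.77 with centred values. That of Slc39a5 to the clock ratio was -0.22 centred, -0.010 with a prior count of 0.5 and -0.15 without 2 mice. The cause was not tested for any of these. The filter of 10 counts in every mouse removed Slc39a5. The coefficient of variation between mice, 51.1% to 63.8% for Mt1, Mt2 and Slc30a10, limits what 4 or 5 mice per group can show.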

Other observations

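The genes most like Slc30a10 over the 13 mice, searched after its values were seen, were Shank2 (r = 0.97, and 0.98 with group means taken out), Cbs (0.97 and 0.97), Elmo3 (0.97 and 0.97), Mical2 (0.96 and 0.97) and Larp1 (0.95 and 0.95), among 11111 genes. Cbs encodes the enzyme that joins homocysteine to serine. These values are a description and were not tested.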
